A study of Mus musculus with 4 samples.

Results

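The transcription factor genes Prdm1, Bcl6, Bach2, Id2 and Id3 were followed in cultured mouse helper T cells with and without the signal transducers STAT4 or STAT6. All probe sets (groups of array probes summarized as 1 value) were taken whose platform annotation names 1 of these symbols alone. These are 5 of 18193 genes on the array, read by 10 of the 34945 probe sets that name a single gene: 1 for Prdm1, 2 for Bcl6, 3 for Bach2, 3 for Id2 and 1 for Id3. Probe sets of a gene share its RNA and are no replicates. A gene's main probe set is the one with the highest mean over the arrays.

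The study read total RNA of CD4+ T cell cultures with Affymetrix whole-genome mouse arrays, and each of its 4 groups has 1 array. Naive CD4+CD44-CD62L+ cells sorted from spleen and lymph nodes were activated through CD3 and CD28 for 3 days, kept in interleukin-2 with the polarizing cytokine for 4 days, and on day 7 given a restimulation of 2 h with the same antibodies and cytokine. Th1 cultures received interleukin-12 and, in the first 3 days, an antibody against interleukin-4. Th2 cultures received interleukin-4 and, in the first 3 days, an antibody against interferon gamma. The groups were Th1 wild type (C57BL/6J), STAT4-deficient Th1 (genotype C57BL6-STAT4<tm1>), Th2 wild type (C57BL/6J) and STAT6-deficient Th2 (genotype B6.129S2©-STAT6<tm1Gru>/J). Both deficiencies come with the mouse strain, so the cells lacked the factor before culture began, and with 1 array per group the deficiency, the strain and the single culture cannot be told apart. The labels give no age and no number of mice per array.

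The members form a small network of repressors and inhibitors that sets how far an activated lymphocyte goes towards a terminal effector state. Blimp-1, the zinc finger repressor encoded by Prdm1, marks effector T cells and plasma cells. Bcl6, a BTB zinc finger repressor needed for follicular helper T cells, and Blimp-1 repress each other's genes. Bach2, a BTB and leucine zipper repressor that pairs with small Maf proteins, holds down Prdm1 and keeps T cells naive or memory-like. Id2 and Id3 carry a helix-loop-helix domain without a DNA-binding region, and they capture E proteins (Tcf3, Tcf4, Tcf12) so that these cannot bind DNA; in T cells Id2 is linked to effector cells, and Id3 to naive, memory and follicular helper cells. STAT proteins bind the letters TTC and GAA set a few bases apart, and Bcl6 recognizes a closely related sequence.

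The stretches before the start sites of 4 members are shown so that letters known to be bound by STAT proteins, Bcl6, Blimp-1 and E proteins can be read beside the expression values; that of Bach2 is described in words. Each is the 250 bases before a start in RefSeq's promoter table (build GRCm38.p6), 5′ to 3′ in the gene's direction. Capitals mark matches to TTCNNNGAA (a STAT site) in Bcl6, to GAAAGT (a core shared by Blimp-1 and interferon regulatory factor sites) in Bcl6, and to CAGCTG or CAGGTG (E boxes) in Id2 and Prdm1.
Prdm1, chr10:44458749-44458998, minus strand: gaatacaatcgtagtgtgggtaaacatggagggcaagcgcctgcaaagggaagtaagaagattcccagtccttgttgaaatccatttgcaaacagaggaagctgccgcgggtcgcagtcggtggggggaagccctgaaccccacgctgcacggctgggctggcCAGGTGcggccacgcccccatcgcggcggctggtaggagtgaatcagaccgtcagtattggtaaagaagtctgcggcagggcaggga
Bcl6 upstream start, chr16:23988853-23989102, minus strand: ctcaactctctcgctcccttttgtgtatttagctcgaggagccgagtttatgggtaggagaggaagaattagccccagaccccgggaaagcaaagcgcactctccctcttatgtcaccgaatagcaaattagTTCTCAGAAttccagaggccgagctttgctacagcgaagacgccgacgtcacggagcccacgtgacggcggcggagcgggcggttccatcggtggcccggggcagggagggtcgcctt
Bcl6 downstream start, chr16:23981284-23981533, minus strand: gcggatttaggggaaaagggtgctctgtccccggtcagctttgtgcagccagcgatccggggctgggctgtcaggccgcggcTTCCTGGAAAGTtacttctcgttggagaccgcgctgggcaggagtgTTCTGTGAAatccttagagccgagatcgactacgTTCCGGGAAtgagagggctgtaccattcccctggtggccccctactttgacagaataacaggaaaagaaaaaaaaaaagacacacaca
Id2, chr12:25096093-25096342, minus strand: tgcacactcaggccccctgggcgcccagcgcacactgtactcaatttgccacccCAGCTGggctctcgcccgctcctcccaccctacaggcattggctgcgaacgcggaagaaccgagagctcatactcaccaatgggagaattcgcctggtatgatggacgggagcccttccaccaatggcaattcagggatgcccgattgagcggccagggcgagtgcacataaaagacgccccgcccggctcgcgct
Id3, chr4:136143572-136143821, plus strand: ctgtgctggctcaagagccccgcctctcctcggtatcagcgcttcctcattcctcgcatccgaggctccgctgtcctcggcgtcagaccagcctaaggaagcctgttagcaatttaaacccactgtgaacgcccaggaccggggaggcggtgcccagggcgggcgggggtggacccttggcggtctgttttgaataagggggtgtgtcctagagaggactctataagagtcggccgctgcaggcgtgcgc

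All 5 genes had a window in the table, 6 windows in all, since Bcl6 has 2 starts. Both strands were searched. TTCNNNGAA occurred in both Bcl6 windows and in that of Bach2, and in 7.01% of the 32817 windows in the table. The downstream Bcl6 start had 3 matches, TTCCTGGAA, TTCTGTGAA and TTCCGGGAA, whose first bases lie 168, 122 and 88 bases before the start. Only 9 windows in the table (0.0274%) held 3 or more. The first of these overlaps a match to GAAAGT, letters found in 12.3% of windows. The upstream Bcl6 start had TTCTCAGAA at 118 bases, and the Bach2 window had TTCGTTGAA at 140 bases.

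An E box (CAGCTG, or CAGGTG read on either strand) lay 87 bases before the Prdm1 start and 196 bases before the Id2 start, as in 27.7% of windows. None of the 6 windows held TGACTCA (the AP-1 and Bach site, 4.46% of windows), TTCCTAGAA (a Bcl6 site that is also a TTCNNNGAA, 0.347%) or TTC and GAA with 4 bases between them (a spacing STAT6 also binds, 5.85%). The Id3 window held none of the letters searched. These are matches of letters and say nothing of binding in these cells.

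Values below are log2 expression values as deposited, and differences are log2 differences between 2 arrays. With 1 array per group no difference has a replicate check or a test. A probe set was called higher or lower where the arrays differed by at least 2-fold (1 log2 unit) and the brighter one was at or above 5.82. That value, the level minimum, is the median over the 4 arrays of every probe set that is no control. As a guide to probe behaviour only, differences of probe sets of the same gene scattered with an SD of 0.48 for STAT4 loss (the STAT4-deficient array minus its Th1 wild type), 0.65 for STAT6 loss (the STAT6-deficient array minus its Th2 wild type), 0.71 for Th1 minus Th2 wild type and 0.85 for STAT4-deficient Th1 minus STAT6-deficient Th2. The median difference over all single-gene probe sets at the level minimum was 0.11, −0.29, −0.32 and 0.05 in the same order. In bulk RNA, fewer cells of a type and less RNA per cell cannot be told apart.

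The arrays differed in ways that touch these values. Over all probe sets outside the controls the median was 5.77 in Th1 wild type, 6.01 in STAT4-deficient Th1, 5.77 in Th2 wild type and 5.63 in STAT6-deficient Th2 cells. The 75th percentile was 7.53, 7.63, 8.10 and 7.79 in that order. The part of these unequal distributions in the differences and shares called was not tested. The 3′ signal of the beta-actin control exceeded its 5′ signal by 2.08 in STAT6-deficient Th2, 0.85 in Th2 wild type, 0.66 in STAT4-deficient Th1 and 0.32 in Th1 wild type cells. Stat4 itself read 11.45 in Th1 wild type and 9.20 in STAT4-deficient cells. In the Th2 cultures, whose Stat4 is not deleted, it read 8.96 in wild type and 9.90 in STAT6-deficient cells. The Stat6 probe sets read 10.93 and 8.93 in Th2 wild type and 10.92 and 8.40 in STAT6-deficient cells. Whether the Stat4 and Stat6 probe sets lie in the deleted parts is not known here. All 8 measured T cell markers stood between 9.68 and 13.87 in every array. Since Prdm1, Bcl6 and Bach2 are also B lineage genes, B and plasma cell markers were read too. The 7 measured B cell markers, among them Cd79a, Ms4a1 and Pax5, read at most 6.52, and 1 to 4 of them reached the level minimum per array. Jchain, which plasma cells make in bulk, read at most 4.67. On its main probe set the plasma cell marker Sdc1 was higher in Th2 wild type (7.35) and STAT6-deficient (7.21) than in Th1 wild type cells (4.64). In STAT6 loss this probe set gave −0.14, and others of Sdc1 at the level minimum ranged from −2.80 to 0.02. The plasma cell list of 5 also holds Xbp1, which read 11.12 to 13.90 and is made by activated T cells.

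Blimp-1 showed the widest range of the members. Prdm1 read 11.09 in Th2 wild type, 7.35 in Th1 wild type, 5.92 in STAT4-deficient Th1 and 5.61 in STAT6-deficient Th2 cells. Th2 wild type stood far above the other 3 arrays, and the signal without STAT6 lay below the level minimum. The gap between the neighbours STAT4-deficient Th1 and STAT6-deficient Th2, 0.31, was smaller than the probe-set scatter of 0.85. Without STAT6 Prdm1 was 44.8-fold lower (−5.48), without STAT4 2.69-fold lower (−1.43), and Th2 wild type exceeded Th1 wild type 13.4-fold. Prdm1 has a single probe set, so no second one checks these values.

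Markers of myeloid and dendritic cells, some of which can express Prdm1, differed between the arrays, in both directions between the wild types. The summed linear signal of the 8 measured was 808 in Th2 wild type cells, against 532 in Th1 wild type, 523 in STAT4-deficient Th1 and 395 in STAT6-deficient Th2 cells, and 4, 4, 3 and 2 of them reached the level minimum in that order. Adgre1, the highest single value, read 8.26 in Th2 wild type cells and at most 5.92 in the others. Itgax read 6.76 in Th2 wild type, 5.57 in Th1 wild type, 5.41 in STAT4-deficient Th1 and 5.03 in STAT6-deficient Th2 cells. Fcgr3 read 6.67, 6.62, 5.63 and 5.08 in that order. Without STAT6 Adgre1 (−2.33), Itgax (−1.73) and Fcgr3 (−1.59) all fell past the limit. Csf1r, the only other marker bright enough for a call there, gave −0.01, so 0 rose (median −1.66). Lyz2 went against Adgre1 and Itgax between the wild types, with 4.88 in Th2 wild type and 6.28 in Th1 wild type cells. It read 6.45 in STAT4-deficient Th1 and 5.27 in STAT6-deficient Th2 cells, and lay below the level minimum in both Th2 arrays. Siglech read 5.63 in Th2 wild type, 5.58 in STAT6-deficient Th2 and 6.39 in Th1 wild type cells. On its main probe set Csf1r read 7.03 to 7.20 in all arrays, and Cd14 stayed below the level minimum at 5.38 or less. The summed signal of the 5 plasma cell markers was 15500 in Th2 wild type cells and 2420 to 5130 in the others, nearly all of it from Xbp1. That of the 3 measured CD8 and NK cell markers was 460 against 167 to 272, led by Cd8b1 (8.54 in Th2 wild type cells). The part of other cells in the Prdm1 values was not tested.

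**Figure D1:**
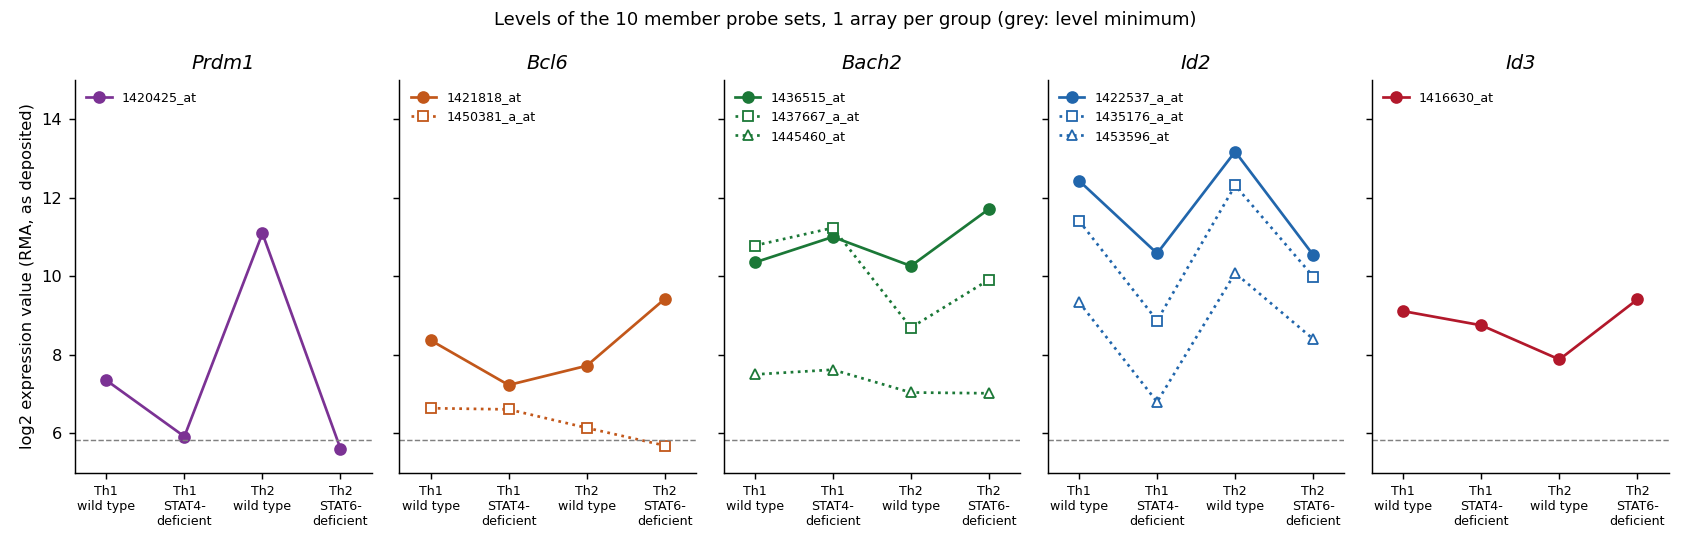
Log2 expression values (vertical axis) of the 10 member probe sets in the 4 arrays (horizontal axis), 1 panel per gene; filled points and solid lines are the main probe set, open points and dotted lines the others, and the dashed grey line is the level minimum of 5.82. Prdm1 peaks at 11.09 in Th2 wild type cells, the 3 Id2 probe sets all dip in both STAT-deficient arrays, and Id3 is lowest (7.88) where Prdm1 is highest.

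Bcl6, the antagonist of Blimp-1, moved in opposite directions in the 2 deficient cultures on its main probe set, 1421818_at. It read 9.42 in STAT6-deficient Th2, 8.37 in Th1 wild type, 7.72 in Th2 wild type and 7.23 in STAT4-deficient Th1 cells. It was thus 3.25-fold higher without STAT6 (1.70) and 2.20-fold lower without STAT4 (−1.14), and 4.55-fold lower in STAT4-deficient Th1 than in STAT6-deficient Th2 cells. The dimmer probe set, 1450381_a_at, read 5.69 in STAT6-deficient Th2, 6.14 in Th2 wild type, 6.61 in STAT4-deficient Th1 and 6.64 in Th1 wild type cells. It followed neither difference, at −0.45 without STAT6 and −0.03 without STAT4. Its values lay close to the level minimum, and which transcripts each probe set reads is not known here. The difference without STAT4 fell short of 2-fold after centring on the hybridization controls (−0.75).

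Bach2, which represses Prdm1, was bright in every array on 2 of its 3 probe sets. The main one, 1436515_at, read 11.71 in STAT6-deficient Th2, 11.0 in STAT4-deficient Th1, 10.35 in Th1 wild type and 10.26 in Th2 wild type cells. Both deficient arrays stood above both wild types. The difference without STAT6 was 2.74-fold (1.45) and that without STAT4 1.57-fold (0.65, under the limit). The second, 1437667_a_at, read 11.23 in STAT4-deficient Th1, 10.78 in Th1 wild type, 9.91 in STAT6-deficient Th2 and 8.69 in Th2 wild type cells. It too was higher without STAT6 (1.23) and under the limit without STAT4 (0.45). It also separated the culture conditions, 4.27-fold higher in Th1 than in Th2 wild type cells, where the main probe set differed by 0.09. The third, 1445460_at, read 7.02 in STAT6-deficient Th2, 7.04 in Th2 wild type, 7.62 in STAT4-deficient Th1 and 7.50 in Th1 wild type cells and was called in none of the 4 comparisons.

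Id2 was lower in both STAT-deficient cultures on all 3 of its probe sets. The main one, 1422537_a_at, read 13.17 in Th2 wild type, 12.43 in Th1 wild type, 10.58 in STAT4-deficient Th1 and 10.54 in STAT6-deficient Th2 cells. The wild types stood high, the deficient arrays low, and the 2 deficient arrays differed by 0.04. The second, 1435176_a_at, read 12.31, 11.41, 8.87 and 9.99 in the same order of groups, and the third, 1453596_at, read 10.08, 9.34, 6.80 and 8.40. Without STAT4 the 3 probe sets were lower by 3.62-fold, 5.84-fold and 5.80-fold, and without STAT6 by 6.21-fold, 4.99-fold and 3.21-fold. Of the members with several probe sets (Bcl6, Bach2 and Id2), only Id2 had more than 1 called in the same direction in both losses. Prdm1 was also lower in both, on its only probe set. Between the wild types Id2 differed by −0.74 to −0.90, under the limit on each probe set, but past it on all 3 with the hybridization controls (−1.11, −1.28 and −1.12). Between the deficient arrays the main probe set gave 0.04 and the others −1.13 and −1.60, so their order depends on the probe set.

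Id3 ran against Id2 in the Th2 cultures. Its probe set read 9.41 in STAT6-deficient Th2, 9.11 in Th1 wild type, 8.75 in STAT4-deficient Th1 and 7.88 in Th2 wild type cells. Th2 wild type was the low array and the other 3 lay within 0.65 of each other. Id3 was 2.88-fold higher without STAT6 (1.53) and 2.35-fold higher in Th1 than in Th2 wild type cells (1.23), while without STAT4 it differed by −0.36. With arrays centred on the hybridization controls the difference between the wild types was 0.85, under the limit.

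**Figure D2:**
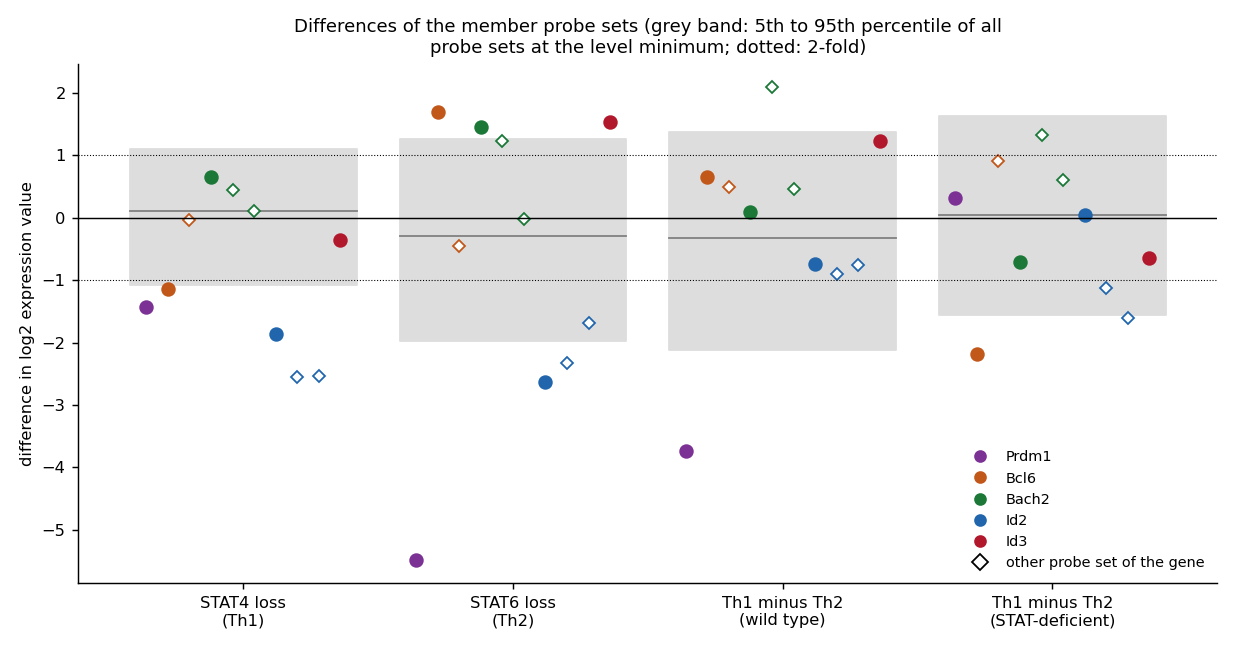
Log2 differences (vertical axis) of the 10 member probe sets in the 4 comparisons (horizontal axis); filled circles are main probe sets, open diamonds the others, the grey band spans the 5th to 95th percentile of all single-gene probe sets at the level minimum with their median as a line, and dotted lines mark 2-fold. In STAT6 loss the main probe sets of Prdm1 (−5.48) and Id2 (−2.63) lie below the band, and those of Bcl6 (1.70), Bach2 (1.45) and Id3 (1.53) above it. The band there runs from −1.97 to 1.26. Of the other probe sets 1 of Id2 (−2.32) lies below it. The rest lie within it: Id2 (−1.68), Bcl6 (−0.45) and Bach2 (1.23 and −0.02).

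All 10 probe sets reached the level minimum in every comparison. In STAT6 loss 4 were lower (Prdm1 and the 3 of Id2) and 4 higher (1 of Bcl6, 2 of Bach2 and Id3), where 20.4% of all single-gene probe sets were lower and 7.58% higher. In STAT4 loss 5 were lower (Prdm1, 1 of Bcl6 and the 3 of Id2) and none higher, where 5.75% of all were lower and 6.69% higher. Between the wild types 2 were higher in Th1 cells (1 of Bach2 and Id3) and 1, Prdm1, higher in Th2 cells, against 9.24% and 24.2% of all. Between the deficient arrays 1 was higher in Th1 cells (Bach2 1437667_a_at) and 3 in Th2 cells (Bcl6 1421818_at and 2 of Id2), against 15.5% and 11.7% of all. Since 3 of these probe sets read Id2 and 3 read Bach2, the counts are not of independent genes. The comparisons share arrays: each wild type array enters both its loss and the comparison of the wild types.

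A shift of a whole array cancels when the change of 1 member is set against that of another in the same 2 arrays. In STAT6 loss the change of Prdm1 minus that of Bcl6 was −7.18, that of Prdm1 minus that of Bach2 −6.94, and that of Id2 minus that of Id3 −4.16. In STAT4 loss these were −0.29, −2.08 and −1.50. The values for Bcl6 rest on its main probe set; the other gave −0.03 in STAT4 loss and −0.45 in STAT6 loss. After quantile normalization the STAT6 loss values were −7.03, −6.76 and −4.37, and those of STAT4 loss −0.65, −2.75 and −1.18. The actin end difference was 1.23 log2 units larger in the STAT6-deficient than in its wild type array and 0.34 larger in the STAT4-deficient than in its own; its part in these values was not tested.

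**Figure D3:**
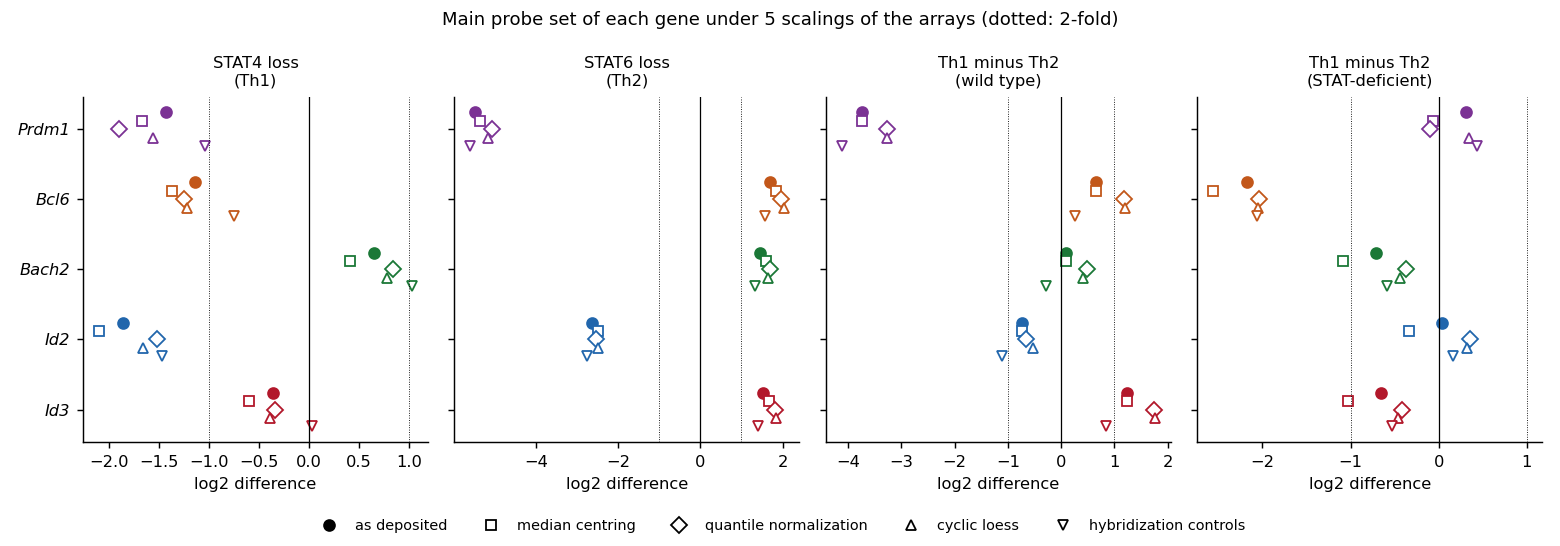
Log2 differences (horizontal axes) of the main probe set of each gene (rows) in the 4 comparisons (panels) as deposited (filled) and under 4 other scalings of the arrays (open). In STAT6 loss all 5 genes stay past 2-fold on their side of 0 under each scaling, and Prdm1 and Id2 do so in STAT4 loss.

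Genes on either side of the network were read from lists. These were chosen with earlier results of these data known, and their counts describe these arrays; each gene is given by its main probe set. Over all genes at the level minimum, 6.18% were higher and 5.34% lower in STAT4 loss, 7.01% and 19.5% in STAT6 loss, 8.14% and 25.4% in Th1 minus Th2 wild type, and 12.6% and 10.3% between the deficient arrays.

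Genes known to be repressed by Blimp-1 in lymphocytes stood mostly higher in STAT6 loss. Of 10 that reached the level minimum, 6 were higher and 1 was lower, with a median of 1.23, against −0.30 over all genes. Tbx21, which encodes T-bet (4.16), the growth factor gene Il2 (2.31) and the activation marker Cd69 (2.04) were among the higher, and Il7r, the interleukin-7 receptor chain (−2.13), was the lower one. In STAT4 loss none of 11 was higher and 3 were lower, Ifng (−4.14), Fos (−1.85) and Il7r (−1.12); the median was −0.19. With the hybridization controls 1 was higher and 2 were lower, and the median was 0.20. Between the wild types 6 of 10 were higher in Th1 cells and none in Th2 cells (median 1.27), led by Ifng (6.49), Tbx21 (4.57) and Il2 (2.07). Between the deficient arrays Ciita, the class II transactivator, was the only called gene of 11 (1.74). The part of Prdm1 in the differences of this list was not tested.

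Effector genes linked to Blimp-1 were lower in 9 of 12 without STAT4, none higher, with a median of −1.59 against 0.13 over all genes; with the hybridization controls 6 were lower (median −1.20). Il10, a cytokine gene that Blimp-1 supports, differed most (−6.80), and the receptor genes Cxcr6 (−2.99), Ctla4 (−2.65) and Cxcr3 (−2.59) were lower. Without STAT6 5 of 11 were lower, led by Il10 (−7.26), Cxcr6 (−5.90) and Ctla4 (−3.27), and 4 were higher, led by the chemokine gene Ccl3 (3.42). Il10 and Ctla4, like Id2, were low in both deficient arrays (Il10 5.94 and 6.61, Ctla4 9.68 and 10.35) and high in both wild types (Il10 12.74 and 13.87, Ctla4 12.34 and 13.62). Between the wild types 4 of 12 were higher in Th1 cells, led by Ccl3 (4.64), and 5 in Th2 cells, led by the inhibitory receptor gene Havcr2 (−4.12).

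The follicular helper list, whose cells depend on Bcl6, was split without STAT6, where 8 of 18 were higher and 6 lower (median 0.75). The list mixes genes that are high with genes that are low in these cells, so its counts and medians give no direction of their program. Ccr7 (1.28), Gpr183 (1.21), Selplg (−1.55) and S1pr1 (−1.16), named here outside the naming rule, are of the low kind. The thymocyte and T cell factor gene Tox (2.80) and the inhibitory receptor gene Btla (2.78) differed most among the higher, and the cytokine gene Il21 (−5.88, another probe set at −4.19) and Tox2 (−5.16) among the lower. Cxcr5, the receptor that brings these cells into B cell follicles, read at most 4.81 and never reached the level minimum. Without STAT4 5 of 19 were higher, led by Tox (2.09), and 4 lower, led by Il21 (−7.63, another probe set at −2.49), the costimulatory receptor gene Icos (−1.59) and P2rx7 (−1.55, others from −2.61 to −0.85); the median, −0.28, turned to 0.10 with the hybridization controls.

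Of the regulators known to act upstream of Prdm1 and Bcl6, 9 of 26 were lower without STAT4 and none higher (median −0.53); with the hybridization controls 6 were lower and 2 higher (median −0.14). They included the AP-1 genes Fosl2 (−2.43, another probe set at −0.57), Fos (−1.85) and Jun (−1.83, another at −0.76), and Klf4 (−2.04, another at −1.19). Without STAT6 5 of 26 were lower and 6 higher (median −0.32), and 9 and 5 with the hybridization controls. Maf (−5.16, other probe sets from −7.90 to 0.05), and Myb (−3.95, others −4.49 and −4.48) were lower, and Tbx21 (4.16) and Rora (3.72, others from 1.71 to 4.45) higher. Irf4, which drives both Prdm1 and Bcl6, read 13.26 to 13.54 on its main probe set, while a second one was lower without STAT6 (−1.17) and higher in Th1 cells between the wild types (1.29) and between the deficient arrays (1.78). Batf, its AP-1 partner, read 12.79 in Th2 wild type cells and 10.09 without STAT6 (−2.70). Irf4 and Batf were named after their values were seen.

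The E proteins, the partners of Id2 and Id3, were read by several probe sets that did not all move together. Tcf3, which encodes E2A, read 8.44 in STAT6-deficient Th2, 9.62 in Th2 wild type, 8.68 in STAT4-deficient Th1 and 8.37 in Th1 wild type cells, and was lower without STAT6 (−1.18, other probe sets from −2.46 to −1.13). Tcf12, which encodes HEB, read 9.33, 8.57, 9.48 and 9.73 in the same order, 1.16 higher in Th1 than in Th2 wild type cells (other probe sets from −0.29 to 1.02); without STAT6 it gave 0.77, with others from −0.17 to 1.88. Tcf4 read 6.39 to 6.96 on its main probe set. Of the other Id genes Id1 read 7.22 to 7.91 and Id4 5.13 to 6.35, called in none of the 4 comparisons.

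Hhex, a homeobox gene expressed in blood cell precursors and B cells, read 8.04 in Th2 wild type and 5.27 without STAT6 (−2.77). Hes1, a target of Notch, read 5.16 to 5.94. Of genes known to be under E protein control 9 reached the level minimum, and each loss had 3 lower and 0 higher (medians −0.50 and −0.87). In STAT4 loss this became 1 lower and 1 higher after quantile normalization (median −0.22) and with the hybridization controls (median −0.12), and in STAT6 loss 3 lower and 1 higher after quantile normalization. The lower ones were Socs3 (−2.75 and −2.61) and Il7r in both, Cdkn1a (−1.37) without STAT4 and Socs1 (−2.12) without STAT6. Rag1, Rag2 and Ptcra, active in thymocytes, stayed below the level minimum.

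Partners and targets of Bach proteins were lower in 4 of 8 without STAT4, none higher, with a median of −1.17; with the hybridization controls 2 of 9 were higher and 3 lower (median −0.57). The transcription factor gene Nfe2l2 (−1.94, another probe set at −0.96), the small Maf gene Maff (−1.53), Bach1 (−1.47, another at −0.83) and Hmox1, the haem oxygenase gene that Bach1 represses (−1.38), were the lower ones. Mafk (−0.96), Mafg (−0.18), Nfe2l1 (0.44) and Gclm (0.78) were under the limit. Without STAT6 2 of 9 were lower, Gclm (−1.57, another at −0.44) and Hmox1 (−1.56), and none higher. Nqo1, a target of Nfe2l2 in the oxidative stress response, read 5.08 to 6.01 and was called in none of the 4 comparisons. Bach1, the paralogue of Bach2, differed by −0.16 there, with its other probe set at −1.71. Maff and Nfe2l2 were 2.51 and 2.74 higher in Th1 than in Th2 wild type cells.

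**Figure D4:**
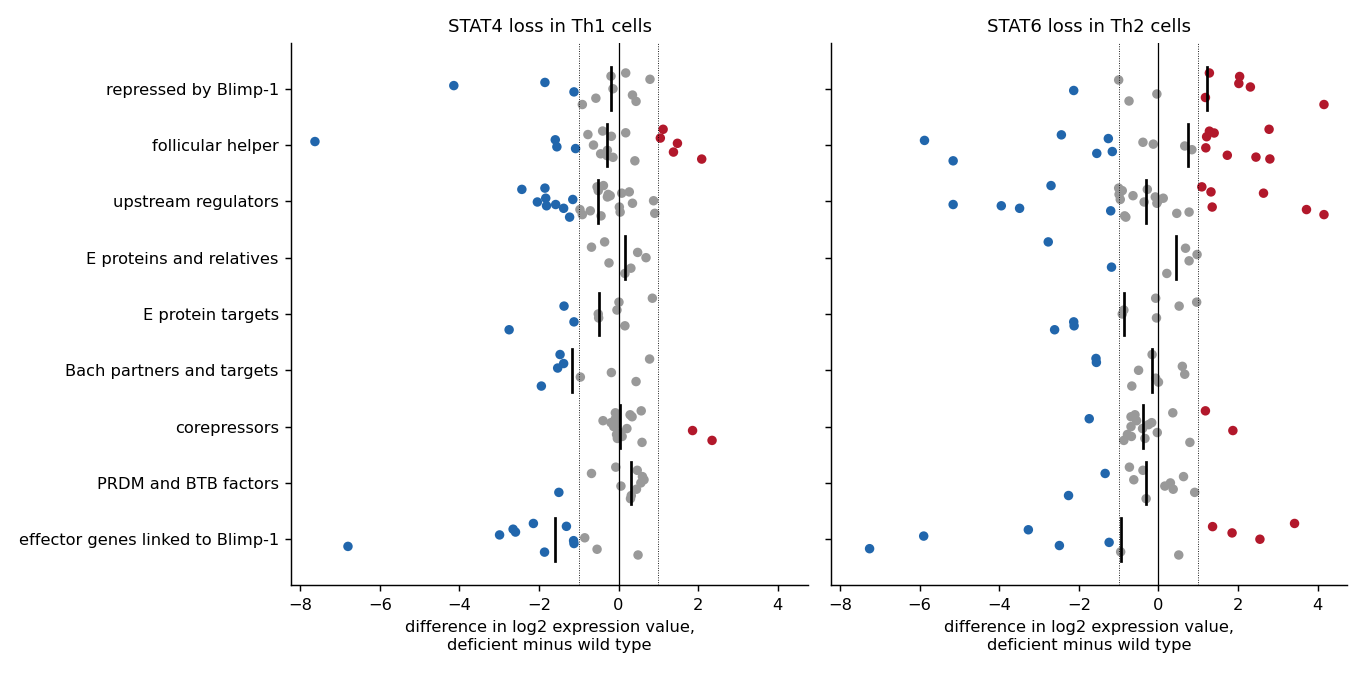
Log2 differences (horizontal axes, deficient minus wild type) of the list genes at the level minimum, 1 row per list, for STAT4 loss (left) and STAT6 loss (right); red points were called higher, blue points lower, grey points neither, and black bars are list medians. Effector genes linked to Blimp-1 have a median of −1.59 in STAT4 loss, and genes repressed by Blimp-1 a median of 1.23 in STAT6 loss.

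Genes with the profile most like each member over the 4 arrays were found by the root mean square difference between profiles centred on their own means, among 13146 genes. Nearest to Prdm1 were Ecm1 (0.24), Adamtsl4 (0.39), Arhgap5 (0.39) and Maf (0.41), and Ecm1 was the only gene within 0.25. Nearest to Id2 were Rhoq (0.10), Skap2 (0.10), Armcx3 (0.12) and Irs2 (0.13), and to Bcl6 Cpm (0.07), Mpzl3 (0.11), Gramd1b (0.13) and Plk2 (0.15). Bach2 lay closest to Cdh15 (0.05), Ankrd23 (0.05), Nova2 (0.07) and Mtln (0.08), and Id3 to Socs7 (0.04), Gadd45b (0.04), Scn8a (0.05) and 1700028I16Rik (0.05). Scn8a and 1700028I16Rik reached the level minimum only in STAT6-deficient Th2 cells (5.95 each), and Nova2 read 5.54 to 7.08. Each member's profile is that of its main probe set, which the other probe sets of Bcl6 and Bach2 did not all follow. Within 0.25 there were 14 genes for Bcl6, 15 for Id2, 121 for Id3 and 135 for Bach2. Prdm1, with a range of 5.48 over the arrays, thus had few genes near it, and Bach2 and Id3, with ranges of 1.45 and 1.53, had many.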

How the data were processed

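Total RNA of 4 cultures, 1 array each, was labelled with biotin and read on Affymetrix arrays. Each deposited value is the log2 signal of a probe set, summarized by the authors with RMA, per the submitters' processing notes; version, and whether the arrays were normalized together, are not given in the sources used here. Of the probe sets outside the 64 controls, 34945 name 1 gene in the platform annotation, 932 several and 9160 none. Symbols were updated through a RefSeq table (GRCm38.p6), which matched 34741. For lists each of 18193 genes is its probe set with the highest mean. Differences were taken between arrays as deposited, with no test. Members and lists were chosen with earlier results of these data known. Genes named were all member probe sets, up to 4 called genes per list and comparison, all E protein and Bach list members that reach the level minimum, and the 4 nearest profiles per member; genes outside this rule are said to be. List members not named on a single-gene probe set, such as Tcf7, were not analysed here. Alternatives were median centring, centring on 18 hybridization control probe sets, quantile normalization and cyclic loess (limma 3.58.1 in R 4.3.3), fold limits of 1.5 and 3, other level minima and the mean of a gene's probe sets. Other steps used Python 3.11.15. The calling code was run on simulated arrays with planted shifts past the limit, which checks the code and not the calls made here. The number of arrays limits the precision.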

Additional observations from a re-analysis of the deposited data

Results flagged for a closer look

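Some members moved in opposite directions in the 2 losses; with 1 array per group the difference between the losses was not tested. For Bcl6 (1421818_at) STAT6 loss minus STAT4 loss was 2.83 log2 units, from 1.70 and −1.14, while its other probe set was lower in both (−0.45 and −0.03). For Id3 it was 1.88, from 1.53 and −0.36. The −0.36 is less than the probe-set scatter of 0.48 in STAT4 loss, and it became 0.03 with the hybridization controls. For the dim Bach2 probe set 1445460_at STAT6 loss minus STAT4 loss was −0.13, from −0.02 and 0.11, less than the probe-set scatter of either loss.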

How the results depend on the processing

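Of the 20 member differences on main probe sets 11 were past 2-fold as deposited. Over 50 alternatives of these none changed sign and 44 stayed past 2-fold. The 6 that did not were Bcl6 and Id3 with the hybridization controls (−0.75 in STAT4 loss, 0.85 between the wild types), Bcl6 as the mean of its probe sets (−0.58 in STAT4 loss, 0.62 in STAT6 loss, −0.63 between the deficient arrays) and Bach2 as that mean (0.89 in STAT6 loss). Median centring and the hybridization controls shift all differences of a comparison alike, by too little here to turn the sign of one past 2-fold. Other probe sets entered only through the mean. Taken alone, Bcl6 1450381_a_at had the opposite sign to the main one in STAT6 loss (−0.45) and between the deficient arrays (0.91). Bach2 1445460_at did so in STAT6 loss (−0.02). Differences under the limit as deposited passed it for Bcl6 between the wild types (1.18 after quantile normalization, 1.20 after loess), Bach2 in STAT4 loss (1.03) and Id2 between the wild types (−1.11) with the hybridization controls, and Bach2 (−1.09) and Id3 (−1.03) between the deficient arrays after median centring. The mean of probe sets also moved Bach2 to 0.88 between the wild types and 0.40 between the deficient arrays, and Id2 to −0.90 between the latter. Of the differences under the limit, those of Id3 in STAT4 loss (0.03 with the hybridization controls), Bach2 between the wild types, and Prdm1 and Id2 between the deficient arrays changed sign under at least 1 scaling.

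Counts of called member probe sets moved with the limits. In STAT4 loss 1 was higher with the hybridization controls or a 1.5-fold limit, and 3 were lower at 3-fold or with 1 probe set per gene. In STAT6 loss 1 was higher at 3-fold and 2 were lower with 1 probe set per gene. Between the wild types 1 was higher with the hybridization controls, at 3-fold or with 1 probe set per gene, and 4 were lower with the hybridization controls or at 1.5-fold. Between the deficient arrays 0 were higher after median centring, at 3-fold or with 1 probe set per gene, 2 with the hybridization controls and 3 at 1.5-fold; 5 were lower after median centring or at 1.5-fold and 1 with 1 probe set per gene.

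Of the 126 list genes 7 were higher and 31 lower in STAT4 loss, 24 and 26 in STAT6 loss, 25 and 23 between the wild types, and 14 and 16 between the deficient arrays. The 126 include genes below the level minimum. Over all genes at the level minimum the shares higher and lower were 6.18% and 5.34% in STAT4 loss and 7.01% and 19.5% in STAT6 loss. They were 8.14% and 25.4% between the wild types and 12.6% and 10.3% between the deficient arrays. In STAT4 loss 16 were higher with the hybridization controls or at 1.5-fold, and 3 higher and 16 lower at 3-fold. In STAT6 loss 45 were lower at 1.5-fold, and 14 higher and 17 lower at 3-fold. Between the wild types 15 were lower after quantile normalization or loess, 38 higher and 37 lower at 1.5-fold, and 16 and 11 at 3-fold. Between the deficient arrays 9 were higher and 29 lower after median centring, 24 and 30 at 1.5-fold, and 5 and 8 at 3-fold. Counts that fell at 3-fold or rose at 1.5-fold follow from the limit itself; for the other alternatives the cause was not tested. No paired analysis was possible because each group has 1 array. Values near or below the level minimum, such as Prdm1 at 5.61 without STAT6, limit how far a fold can be read.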

Other observations

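Of 17 corepressors of Blimp-1, Bcl6 and Bach2, 6 were lower in Th1 than in Th2 wild type cells and none higher (median −0.61), led by Tle1 (−2.76), Ezh2 (−1.41), Ehmt2 (−1.37, another probe set at 0.34) and Ctbp1 (−1.20), where 25.4% of all genes were lower. In STAT4 loss 2 of 17 were higher, the Groucho family gene Tle1 (2.35, another probe set at 3.34) and the class IIa histone deacetylase gene Hdac7 (1.86, another at 1.98), and none lower, with a median of 0.04 (−0.20 after median centring). In STAT6 loss Hdac7 (1.87, another at 1.22) and Bcor, which encodes a corepressor that binds Bcl6 (1.18), were higher and the Polycomb methyltransferase gene Ezh2 (−1.74) lower. Hdac7 thus read 9.82 and 9.55 in the wild types and 11.68 and 11.42 in the deficient arrays. Its deficient arrays stood above its wild types, where those of Id2 stood below. Tle1 read 5.94 in Th1 wild type cells and 7.84 to 8.70 in the other 3 arrays.

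Among related PRDM and BTB zinc finger genes Zbtb32 read 12.07 in STAT6-deficient Th2, 11.17 in Th2 wild type, 10.48 in Th1 wild type and 8.98 in STAT4-deficient Th1 cells (−1.50 without STAT4). Zbtb7a was lower without STAT6 on its main probe set (−2.26), with others from −0.32 to 0.08. Prdm10 was lower without STAT6 too (−1.34).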
